A study of Homo sapiens with 22 samples.

Results

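Insertions of a piggyBac transposon were examined in 8 genes that restrain RAS signalling or cell division, NF1, SPRED2, LZTR1, RASA2, PTPN1, RB1, CUL3 and TSC2. They were chosen by name from 19970 protein-coding genes on chromosomes 1 to 22 and X, and an insertion was counted for a gene when its TTAA lay within the gene's GENCODE version 44 span on hg38. The 20 libraries together held 42811 insertions in these genes, at 5666 of their 8483 TTAA sites. All cells were K562, a human leukemia cell line, electroporated with 5 µg of the donor plasmid Barcoded-PBase-SRT-Puro and 5 µg of helper plasmid and grown in 2 µg/ml puromycin for 11 days. The helper was hyPBase in 10 libraries and hyPBase-centrip in the other 10, and the sources used here do not say how the latter was altered. RNA was isolated from sets of 3 transfections, which also shared a dish, so that each library can hold pooled cells. Insertions carry no expression values, so the cell line could not be checked against marker genes.

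RAS proteins relay growth signals when bound to GTP, and cells switch them off by GTP hydrolysis, by removing activating phosphates upstream or by degrading the RAS protein. Neurofibromin, the product of NF1, and RASA2 speed up GTP hydrolysis, and SPRED2 brings neurofibromin to the membrane. LZTR1 is an adaptor that presents RAS-family proteins to CUL3, the scaffold of a ubiquitin ligase, and PTPN1 is a tyrosine phosphatase that acts on receptors and other kinases. RB1 holds cells before DNA replication, and TSC2 restrains the growth kinase mTORC1. A self-reporting transposon carries a promoter without a polyadenylation signal, so that its transcript runs on into the genome and tells where it landed. In an insertion pool under growth, a gene whose loss favors dividing cells could collect insertions, more in exons or in 1 orientation, or insertions with more reads. The values below address that question for the 8 genes, each set against the 500 kb on either side of the gene, called the flank.

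The 20 libraries held 1509672 to 3596762 insertions each, with 2.23 to 5.39 reads per insertion. In these genes the library hyPBase-centrip replicate 3 stood apart from the other 9 of its helper more often than any other library. It had 1638175 insertions and 2.29 reads per insertion. It was kept, and leaving it out ended 1 of the members' calls, that of LZTR1 for reads per insertion.

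The members differ greatly in how much target they offer. NF1 spans chr17:31094927-31382116 on the plus strand and holds 2450 TTAA sites, 8.53 per kb. RASA2 at chr3:141487027-141615344 holds 1220 and CUL3 at chr2:224470150-224585397, on the minus strand, holds 1129. SPRED2 at chr2:65310851-65432637, also on the minus strand, holds 770, and PTPN1 at chr20:50510321-50585241 holds 450. LZTR1 at chr22:20982269-20999032 holds only 20 TTAA sites (1.19 per kb), and TSC2 at chr16:2047967-2089491 holds 39 (0.939 per kb). The GENCODE span of RB1, chr13:48303744-48599436 with 2405 sites, runs past the end of its canonical transcript at position 48481890 and covers the protein-coding genes RCBTB2 and LPAR6. NF1 likewise holds OMG, EVI2A and EVI2B, and TSC2 meets PKD1 at its end. Of the sites on offer, SPRED2 had 84.2% hit, LZTR1 85.0%, PTPN1 82.9%, RASA2 75.7%, NF1 69.6%, CUL3 59.5%, RB1 54.5% and TSC2 41.0%.

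The TTAA site with the most insertions was taken from each gene. This site held 143 of 287 insertions in LZTR1 and 12 of 65 in TSC2. In the other genes it held only a small part, as with 433 of 10831 insertions in SPRED2 and 244 of 10965 in NF1. Each sequence was read from hg38 in the direction of the gene, with 12 bases on either side and the target tetranucleotide in capitals. The second LZTR1 sequence is from its last exon, and the last entries are the most-hit coding sites of NF1 and RASA2.
NF1, intron 1: gtgggggcctctTTAAaattcattccta
SPRED2, intron 1: cagcagtggtctTTAAccaccacagact
LZTR1, intron 2: tcgtggtgaggaTTAAatgagatcctgc
LZTR1, exon 21: gacaagcctccaTTAAagccacagcagt
RASA2, intron 1: aattgacttgcaTTAAagtggctaacaa
PTPN1, intron 1: tctaaaatgtctTTAAatgaaaattgtt
RB1, beyond the canonical transcript: cacgaaactgacTTAActaagacccact
CUL3, intron 1: ctaacagactctTTAAgtttgtttcctc
TSC2, intron 11: ttaaccacagctTTAAggaggactccac
NF1, coding exon 2: ctcactactattTTAAagaatgttaaca
RASA2, coding exon 12: ctgaaagtaacaTTAAaacctattcttg

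The NF1 site at chr17:31148306-31148309 held 244 insertions from all 20 libraries, and the SPRED2 site at chr2:65359633-65359636 held 433. The LZTR1 site at chr22:20983261-20983264, 964 bases after the start of the canonical transcript, held 143 of that gene's 287 insertions. The PTPN1 site at chr20:50512245-50512248 held 217, the RASA2 site at chr3:141488375-141488378 held 107 and the RB1 site at chr13:48531884-48531887 held 138. The most-hit sites of CUL3 (chr2:224574838-224574841) and TSC2 (chr16:2061199-2061202) held 30 and 12. Each of the 6 sites named before these was hit in all 20 libraries, the CUL3 site in 15 and the TSC2 site in 9.

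Density was measured as insertions per 1000 TTAA sites per 1000000 insertions of the library. Among the RAS brakes, SPRED2 was far denser than its flank, NF1, PTPN1 and LZTR1 were moderately denser, and RASA2 was sparser. Of the remaining genes CUL3 was close to its flank, RB1 somewhat below it and TSC2 far below it. All 8 differed from their flank by edgeR's quasi-likelihood test (5 higher, 3 lower, adjusted p below 0.05). That says little about these genes in particular, since 35.3% of the 16019 genes tested were called higher and 55.1% lower. The members' median log2 ratio of gene to flank was 0.25, against -0.26 over all genes tested.

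SPRED2 ranged from 253 to 297 over the 20 libraries with a median of 271, and its flank from 111 to 124. The 2 ranges did not overlap, and the fitted ratio was 2.32-fold (log2 1.22 ± 0.02 SE, adjusted p = 1.19e-126). This ratio exceeded that of 90.5% of the genes tested. NF1 ranged from 76.0 to 95.3 (median 85.2) against 62.7 to 76.4 in its flank. It was denser than the flank in 19 of 20 libraries, with a ratio of 1.29 (log2 0.36 ± 0.02, adjusted p = 8.82e-42). Of the TTAA sites in the NF1 flank 70.4% had 31 unique bases on both sides, against 89.7% in the gene. With unique sites alone NF1 was still called denser. PTPN1, at 266 to 330 (median 297), lay above its flank, at 214 to 259, in every library, with a ratio of 1.32 (log2 0.40 ± 0.02, adjusted p = 1.96e-46).

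RASA2 ranged from 71.6 to 110 (median 91.3) while its flank held 146 to 160, with no overlap. Its ratio was 0.610 (log2 -0.71 ± 0.02, adjusted p = 1.16e-77). LZTR1 ranged from 172 to 550 (median 279) and its flank from 150 to 176. The wide spread goes with its small counts, 10 to 22 insertions per library, and the ratio was 1.73 (log2 0.79 ± 0.09, adjusted p = 4.99e-15). The 2 sides of LZTR1 were unequal, with 12.6 insertions per site before the gene and 4.28 after it over all libraries, and 50.2% of its flanking TTAA sites had 31 unique bases on both sides, against 100% in the gene. With unique sites alone the LZTR1 ratio was -0.11 on the log2 scale and lost its call, and in introns without the first 1 kb it turned to -1.64 (adjusted p = 4.07e-11).

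CUL3 ranged from 33 to 51.0 (median 41.2) and its flank from 34.7 to 41.1, so the ranges overlapped. Its ratio of 1.09 (log2 0.13 ± 0.03, adjusted p = 0.00033) turned to -0.24 on the log2 scale with a flank of 250 kb. RB1 ranged from 33.5 to 48.7 (median 44.2) and its flank from 54.8 to 59.2, and the ratio was 0.768 (log2 -0.38 ± 0.02, adjusted p = 1.32e-36). Within the span of its canonical transcript RB1 fell further below its flank, with a log2 ratio of -0.98 (adjusted p = 1.85e-77). TSC2 had 1 to 7 insertions per library. Its density ranged from 14.5 to 55.2 (median 32.99) against 82.4 to 109 in the flank, a ratio of 0.339 (log2 -1.56 ± 0.14, adjusted p = 1.87e-21). With a flank of 1 Mb NF1 turned to -0.06 (adjusted p = 0.0013), and with 250 kb PTPN1 was at -0.015 and no longer called.

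**Figure D1:**
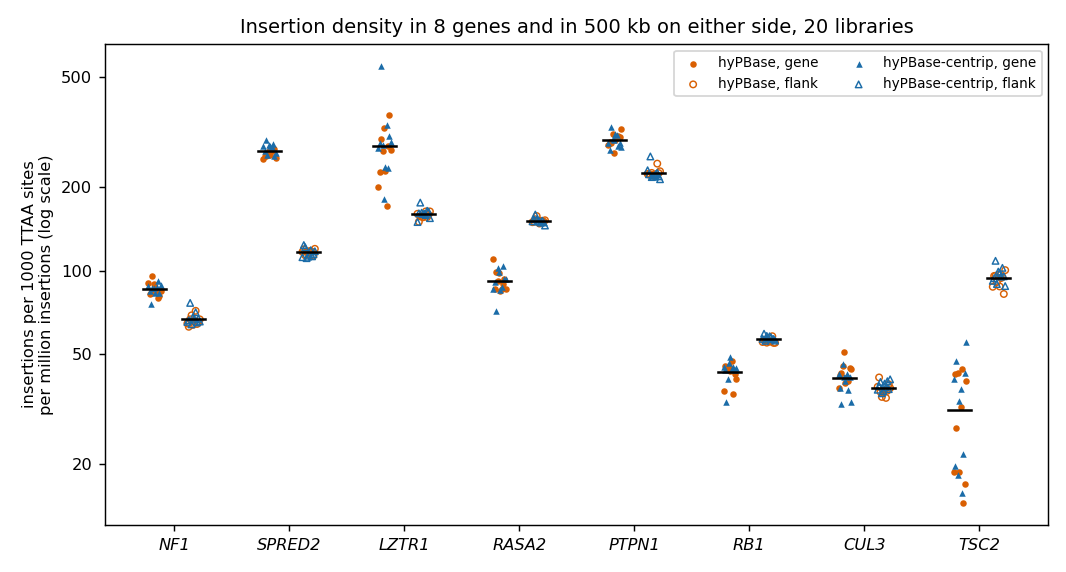
Insertion density (insertions per 1000 TTAA sites per 1000000 insertions, log scale) in each gene (filled) and in its flank (open) in 10 hyPBase libraries (circles) and 10 hyPBase-centrip libraries (triangles), with the mean of all 20 as a bar. SPRED2 lies at 253 to 297 above a flank of 111 to 124, while RASA2 and TSC2 lie wholly below their flanks.

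Insertions were concentrated in parts of each gene. In SPRED2 the first intron held 9954 of 10831 insertions, 17.2 per TTAA site against 4.79 in the other introns. The densest 5 kb of SPRED2, centred 71.2 kb after the start, held 20.7% of its insertions on 4.55% of its sites. In PTPN1 the first intron held 92.0% of the insertions, and the first 5 kb held 28.2% of them on 7.33% of the sites. The densest 5 kb of NF1 lay 51.4 kb into the gene in intron 1 and held 8.90% of its insertions at 30.5 per site, against 4.48 over the gene. In RASA2 the densest 5 kb was the first, at 19.1 insertions per site. CUL3, the flattest of the longer genes, reached 5.29 per site in its densest 5 kb, 8.21 kb after the start. In RB1 the densest 5 kb lay 229 kb after the start, beyond the canonical transcript, where 3086 of the 5439 insertions fell.

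**Figure D2:**
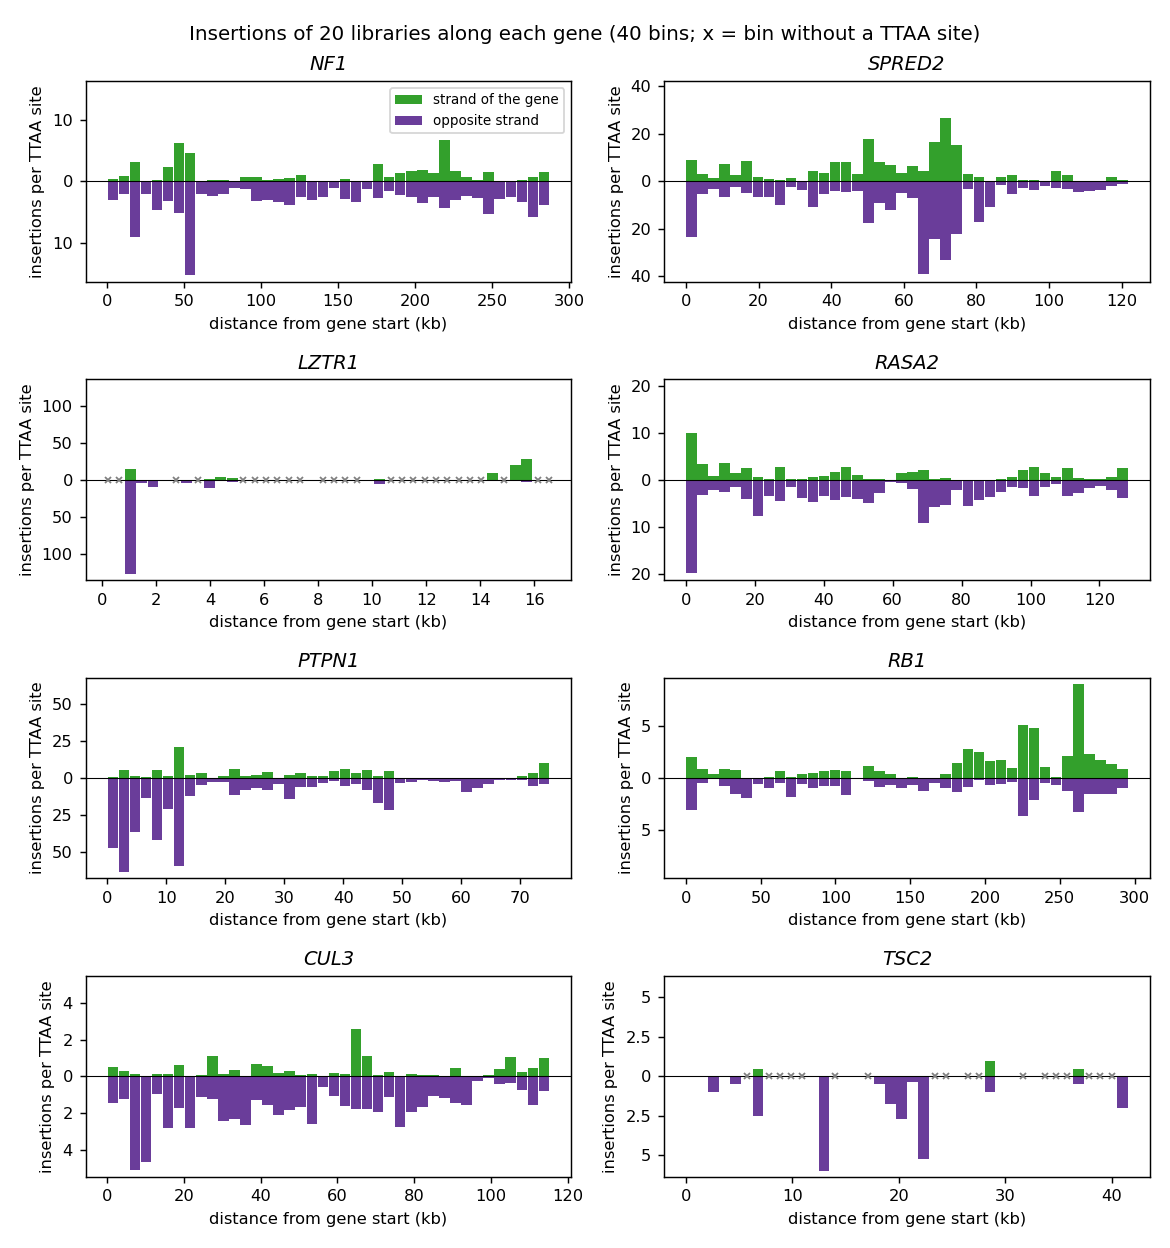
Insertions per TTAA site along each gene in 40 bins, 20 libraries together, against the distance from the gene start in kb, with insertions in the strand of the gene upward and those in the opposite strand downward and crosses at bins without a TTAA site. The densest bin of RASA2 is its first, that of PTPN1 lies at 11.2 to 13.1 kb, that of SPRED2 at 70.0 to 73.1 kb and that of RB1 at 259 to 266 kb, and the downward bars hold most insertions in every gene but RB1.

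Within 1 kb on either side of the canonical start, and so partly outside the gene, there were 470 insertions at 3 sites for PTPN1, 144 at 3 for LZTR1 and 234 at 9 for CUL3. The 2 such sites of TSC2 held 0. For each gene the first RefSeq promoter window listed was read (250 bases before to 50 after the start, 7 of 8 genes matched). Among these only that of NF1 had a TTAA, whereas 46.1% of all 35116 windows of this length held the letters TTAA. Any further windows of a gene were not read, and whether each lies at the canonical start was not checked. The letters read the same on both strands, and a count of them says nothing on any factor.

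Exons were no denser than introns in most of these genes. A site counted as exonic when it lay in an exon of any transcript of the gene. The exonic density per site was then lower than the intronic in NF1, SPRED2, LZTR1, PTPN1 and CUL3 and higher in RASA2. RB1 and TSC2 were not called (edgeR, adjusted p = 0.89 and 0.34). Over 13805 genes tested, 46.1% were called denser in exons and 23.4% in introns. SPRED2 showed the widest gap of the 8, with 3.20 insertions per exonic site against 14.4 per intronic site (log2 -2.16 ± 0.14, adjusted p = 1.42e-56), and 2.77% of genes had a lower ratio. Its intron 1 held 17.2 insertions per site and its other introns 4.79, so the size of the gap owes much to intron 1. Its exonic share ranged from 0.181% to 1.13% of insertions per library (median 0.591%), with 2.60% of its sites in exons.

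RASA2, the exception, had 6.25 insertions per exonic site and 4.74 per intronic site (log2 0.40 ± 0.08, adjusted p = 4.81e-06). Its exonic share ranged from 2.92% to 8.11% (median 5.81%), with 4.51% of its sites there. NF1 had 3.72 per exonic and 4.63 per intronic site (log2 -0.31 ± 0.04, adjusted p = 6.1e-15), a call lost when only exons of the canonical transcript were used (log2 -0.10, adjusted p = 0.28). The call of LZTR1 (log2 -0.47 ± 0.17, adjusted p = 0.0076) turned to 0.89 when barcodes at 1 position were collapsed. It also depended on which exons were used. The canonical transcript of LZTR1 has exonic sites in its last exon alone, with 25.5 insertions per site at 2 sites. Its introns had 13.1 per site at 18 sites, the opposite direction. The call of CUL3 (log2 -0.47 ± 0.11) was lost with exons of the canonical transcript (log2 -0.072, adjusted p = 0.64) and in hyPBase-centrip libraries alone (adjusted p = 0.076). That of PTPN1 (log2 -0.39 ± 0.10) was lost with barcodes collapsed (log2 -0.072, adjusted p = 0.51). For RB1 the exons of the canonical transcript against its introns gave 0.91 (adjusted p = 2.38e-09).

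Coding sequence is where an insertion breaks the protein directly, and 6 of the 8 genes have TTAA sites there. SPRED2 and LZTR1 have none. Of 106 coding TTAA sites, 73 were hit by 339 insertions, 3.20 per site. NF1 supplied 174 of them at 35 of 53 sites, 3.28 per site against 4.48 over the gene. RASA2 had 66 at 12 of 14 sites, CUL3 46 at 7 of 11, RB1 35 at 13 of 17, TSC2 10 at 3 of 7 and PTPN1 8 at 3 of 4. Coding exons against introns gave a log2 ratio of -0.49 for NF1, -0.0083 for RASA2, -0.13 for RB1 and 0.92 for CUL3 (adjusted p = 0.00043).

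The most-hit coding site, in exon 2 of NF1 at chr17:31156106-31156109, had 21 insertions in 13 libraries, and none of the 21 lay in the strand of the gene. The leading site of RASA2, in exon 12 at chr3:141572703-141572706, had 15 in 9 libraries, again none in the strand of the gene. Those of RB1 (exon 13), CUL3 (exon 13), TSC2 (exon 5) and PTPN1 (exon 8) had 17, 13, 6 and 5. Over all coding sites 62 of 339 insertions, 18.3% (95% Wilson interval 14.5% to 22.8%, counting error only), lay in the strand of the gene. No coding insertion had more than 19 reads.

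Orientation was uneven in these genes. Insertions in the strand of the gene were the minority in 7 of 8, and in RB1 they were slightly the majority. By edgeR's paired test 7 were called lower and 1 higher, where 78.1% of 15632 genes tested were called lower and 7.24% higher. The members' median log2 ratio of same to opposite strand was -1.57 and that of all genes -1.02.

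CUL3 had 14.1% to 24.2% of insertions in its own strand per library (median 17.6%), and its ratio was -2.17 ± 0.07 on the log2 scale (SE, adjusted p = 4.77e-134). PTPN1 had 14.3% to 22.2% (median 18.9%, log2 -2.11 ± 0.04, adjusted p = 3.28e-225). RASA2 had 21.4% to 29.4% (median 24.3%, log2 -1.62 ± 0.04) and NF1 22.9% to 32.0% (median 25.3%, log2 -1.51 ± 0.03). No library of these 4 genes reached 50%.

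SPRED2 had 34.4% to 42.4% (median 36.7%, log2 -0.77 ± 0.03), the mildest of the 7. LZTR1, with its few insertions, ranged from 18.2% to 60% (median 27.5%, log2 -1.18 ± 0.17), and collapsing barcodes at 1 position took its value to -0.28 with no call. In TSC2 3 of 65 insertions lay in its strand (log2 -3.55 ± 0.48, adjusted p = 7.03e-13), and 2.26% of the genes tested had a lower ratio.

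RB1 had 46.0% to 56.5% in its strand (median 51.6%), above 50% in 15 of 20 libraries (log2 0.09 ± 0.04, adjusted p = 0.027). This rested on the annotated span. In the canonical transcript 34.3% of 2353 insertions lay in the strand of RB1 and the log2 ratio turned to -0.94, and in the rest of the span 64.8% of 3086 did. RCBTB2, on the opposite strand, lies in that rest of the span, while LPAR6, also on the opposite strand, lies within the canonical transcript. At sites in genes of 1 strand only the ratio was -0.15 (adjusted p = 0.004).

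In NF1 the sites shared with genes of the other strand had 48.6% of 2376 insertions in the strand of NF1, against 19.7% of 8589 at the remaining sites. Intron 36, which holds the nested genes OMG, EVI2A and EVI2B, stood at 45.2% of 2824 insertions. Of the 27 introns of NF1 with at least 50 insertions 16 were below 10%.

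Against neighbouring genes, each read by its own strand at sites in genes of 1 strand, CUL3, NF1, PTPN1 and RASA2 had the lower same-strand share and RB1 and SPRED2 the higher one (limma on log2 odds per library, 0.5 added to each count). The value of RB1 is for its whole span, and its neighbours had 30.2% to 39.8% per library. Within its canonical transcript RB1 had 34.3%, but that counts all sites, also those shared with a gene of the other strand. The comparison with neighbours was not run within the canonical transcript. The difference for LZTR1 was not called (log2 0.09 ± 0.15, adjusted p = 0.57), and TSC2 had too few insertions to be tested. Here 43.4% of 11843 genes tested were called lower and 40.0% higher. The difference was widest for CUL3, whose neighbours had 35.7% to 46.1% per library, with no overlap with the gene (log2 -1.63 ± 0.07, adjusted p = 1.53e-15). Neighbours of PTPN1 had 25.2% to 31.5% and those of RASA2 30.6% to 34.8%, again without overlap with the gene. The PTPN1 difference of -0.78 ± 0.06 was at -0.00078 and not called once barcodes at 1 position were collapsed. Neighbours of SPRED2 had 25.5% to 39.6%, and its difference of 0.34 ± 0.06 was not called with at least 2 reads (adjusted p = 0.064).

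**Figure D3:**
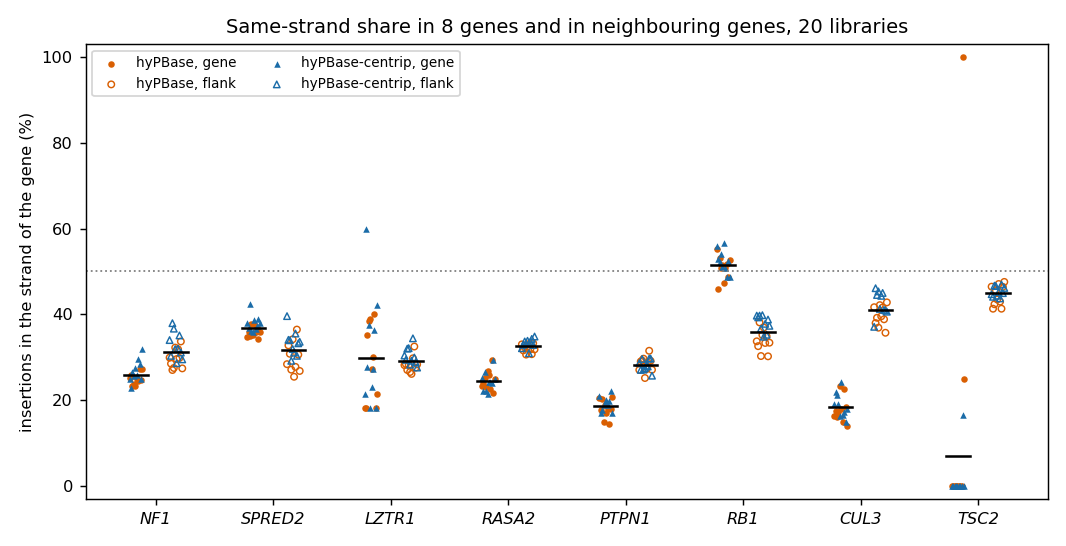
Percent of insertions in the strand of the gene, in each of the 8 genes (filled) and in the other protein-coding genes of its flank by their own strand (open), in 10 hyPBase libraries (circles) and 10 hyPBase-centrip libraries (triangles), with the mean of 20 as a bar and a dotted line at 50%. Filled points count all sites of a gene, open points only flank sites in genes of 1 strand. At sites of 1 strand alone, with the libraries pooled, RB1 had 47.4% and NF1 19.7%. CUL3, PTPN1 and RASA2 lie wholly below their neighbours and RB1, over its whole annotated span and all its sites, wholly above. TSC2 points rest on 1 to 7 insertions each.

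The last exon of the canonical transcript differed from the introns of that transcript in most members. In LZTR1 48 of 51 insertions in the last exon lay in the strand of the gene (94.1%, 95% Wilson interval 84.1% to 98.0%), against 16.5% of 236 in its introns. The site at chr22:20998094-20998097, printed above for exon 21, held 31 of these 51. PTPN1 had 65.9% of 182 in its last exon against 17.9% in the first intron and 9.07% in the others, and the last exon was higher than the introns in 20 of 20 libraries. RB1 had 64.1% of 92, higher in 19 of 20 libraries, and CUL3 55.0% of 100, also higher in 19 of 20. RASA2 had 39.6% of 273 in the last exon, higher in 18 of 20.

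NF1 and SPRED2 showed less of it, with 31.4% of 194 (higher in 12 of 20 libraries) and 37.9% of 29 (higher in 7 of the 15 libraries with an insertion there). TSC2 had 2 insertions in its last exon. In its introns it had 0 of 53 insertions in the strand of the gene, which allows a share of up to 5.66% by counting alone. Over all protein-coding genes the share was 53.2% ± 0.82 in the last exon (SD, n = 20 libraries), 30.6% ± 1.03 in the first intron, 29.8% ± 0.73 in the other introns and 24.6% ± 1.39 in the other exons. The last exon was above the other introns in 20 of 20 libraries. Over the pooled libraries it was also above the introns in every member but TSC2, though only narrowly above the first intron in NF1 and SPRED2. The gap between exon and introns was not tested per gene.

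**Figure D4:**
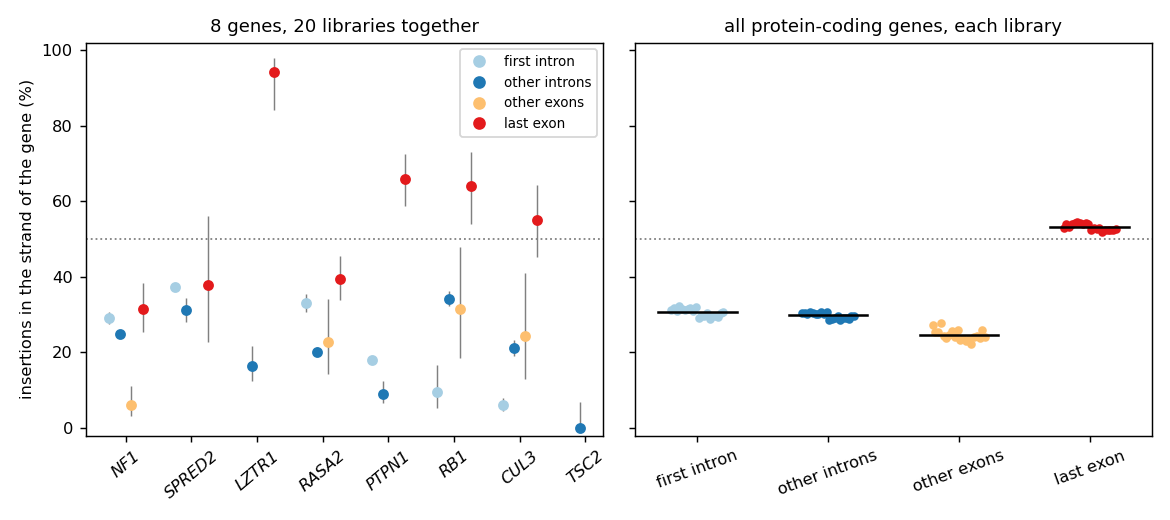
Percent of insertions in the strand of the gene by part of the canonical transcript. Left, the 8 genes with 20 libraries together and 95% Wilson intervals, for parts with at least 20 insertions. Right, all protein-coding genes, 1 point per library with the mean as a bar, where the last exon lies at 51.9% to 54.4% and the other parts at most at 32.2%.

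Introns of 1 gene differed among themselves, most widely in RASA2 and CUL3 among introns with at least 50 insertions. In RASA2 none of 106 insertions in intron 14 and 2.29% of 524 in intron 9 lay in the strand of the gene, whereas intron 18 had 60.5% of 86 and intron 1 33.03% of 1559. In CUL3 the share was 5.95% of 706 in intron 1 29.5% of 491 in intron 3 and 73.7% of 57 in intron 14. RB1 had 9.52% of 105 in intron 1 and 47.8% of 577 in intron 2. SPRED2 was more even, at 37.4%, 27.3% and 35.3% in introns 1, 2 and 4. Single sites were sharper still, as the leading CUL3 site had 0% of 30, the leading NF1 site 4.92% of 244 and the second SPRED2 site 76.0% of 283.

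Reads per insertion were lower than in the flank in NF1, RASA2, PTPN1, RB1 and CUL3, slightly higher in SPRED2 and LZTR1 and not called in TSC2. NF1 had 1.91 to 4.46 reads per insertion per library (median 2.81) against 2.50 to 6.52 in its flank, and was the lower of the pair in all 20 libraries. Its ratio was 0.701 (limma, log2 -0.51 ± 0.03 SE, adjusted p = 8.25e-12), and 8.99% of genes had a lower one. PTPN1 (0.715), CUL3 (0.744), RASA2 (0.751) and RB1 (0.834) were likewise lower in all 20 libraries, with adjusted p of 1.33e-10, 1.11e-09, 3.94e-12 and 1.46e-08. Of 14469 genes tested 54.4% were called lower and 13.8% higher. The members' median log2 ratio was -0.34 and that of all genes -0.15.

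SPRED2 at 1.04 (log2 0.05 ± 0.02, adjusted p = 0.045) and LZTR1 at 1.14 (log2 0.20 ± 0.08, adjusted p = 0.033) were called higher. SPRED2 was higher in 14 of 20 libraries and LZTR1 in 15. Both calls were lost with at least 2 reads per insertion (adjusted p = 0.26 and 0.95) and in hyPBase libraries alone (0.75 and 0.34). That of LZTR1 was also lost without hyPBase-centrip replicate 3 (0.065) and with a 1 Mb flank (0.40), and that of SPRED2 with a 250 kb flank (0.83). In simulated data 9% of this test's calls were false, more than the adjusted threshold allows for. TSC2 was not called (log2 0.05 ± 0.21, adjusted p = 0.85).

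Insertions with at least 30 reads were few, and their share was below that of the flank in every member but TSC2. In NF1 29 of 10965 insertions (0.264%) had that many against 0.778% in its flank, in PTPN1 17 of 6935 (0.245%) against 1.27%, and in RASA2 6 of 5868 (0.102%) against 0.480%. RB1 had 5 (0.0919% against 0.371%), CUL3 2 (0.0826% against 0.458%) and SPRED2 43 of 10831 (0.397% against 0.47%). LZTR1 had 2 of 287 (0.697% against 0.907%) and TSC2 1 of 65 (1.54% against 0.683%), so that both shares rest on very few insertions. The insertion with the most reads in these genes had 119, in an intron of RASA2. Exonic insertions of NF1 had 2.45 reads on average and intronic ones 2.97.

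By orientation, SPRED2 insertions in its own strand had 3.15 reads against 3.95 in the opposite strand, and PTPN1 insertions 2.72 against 3.60. The opposite strand was the higher in 20 of 20 libraries for both genes. CUL3 leaned the same way in 17 of 20 libraries. RB1 leaned the other way in 16 of 20, with 2.87 against 2.73, and RASA2 was split 10 to 10. Reads had no molecular identifiers, so a read count is not a count of molecules or cells.

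**Figure D5:**
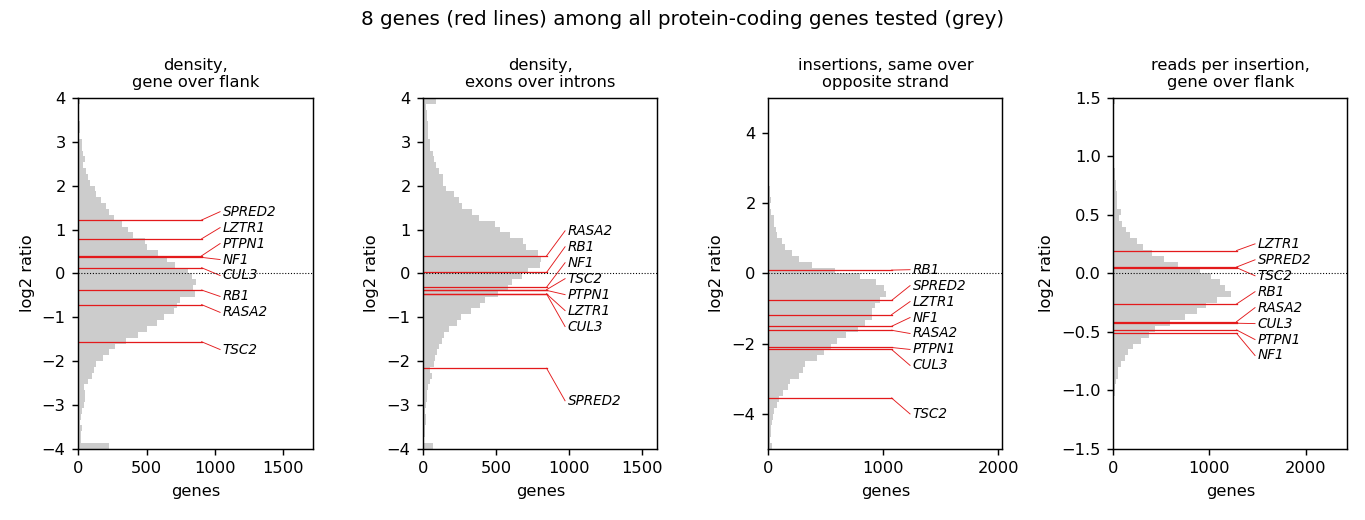
Log2 ratios of the 8 genes (red lines) among all protein-coding genes tested (grey, number of genes per bin, values beyond the axis drawn in the outermost bin) for density in gene over flank, density in exons over introns, insertions in the same over the opposite strand, and reads per insertion in gene over flank. The 8 genes lie within the bulk of all genes in each panel, apart from SPRED2 at -2.16 for exons and TSC2 at -3.55 for orientation.

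Genes that share these roles behaved in mixed ways. Over all genes tested, 35.3% were called denser than their flank and 55.1% sparser. Among 18 other brakes on RAS signalling, 7 of the 17 tested were denser than their flank and 9 sparser, with a median log2 ratio of -0.12. SPRY4, which blocks receptor signals upstream of RAS, was highest at 1.42 ± 0.05 and DUSP6, a phosphatase that switches off ERK, lowest at -1.90 ± 0.21. Of 19 carriers of RAS signalling 7 of 17 were denser and 8 sparser (median -0.018), from ARAF, a RAF kinase, at 2.38 ± 0.07 to SHOC2, a scaffold for RAF activation, at -1.23 ± 0.03. Of 20 other tumor suppressor genes 9 of 18 were denser and 8 sparser (median 0.16), from CDKN1B, a cyclin-dependent kinase inhibitor, at 1.75 ± 0.03 to KEAP1, another CUL3 adaptor, at -2.10 ± 0.21.

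Exons were called denser than introns in 5 of 16, 7 of 17 and 5 of 16 genes of the 3 lists (46.1% of all genes tested). They were called sparser in 8, 9 and 6 (23.4% of all genes). The same-strand share was called lower in 14 of 17, 17 of 17 and 17 of 18 genes, and higher in DUSP6 alone (78.1% and 7.24% of all genes). Against neighbouring genes it was called higher in 5 of 12, 2 of 16 and 2 of 16 (40.0% of all genes). There it was called lower in 4, 13 and 10 (43.4%). Reads per insertion were called lower in 7 of 14, 11 of 17 and 10 of 17 (54.4% of all genes) and higher in 1, 3 and 3 (13.8%). DEPDC5, a brake on mTORC1 named here after its value was seen, had the highest of these ratios at a log2 of 0.78 ± 0.06. Medians of the 3 lists for reads per insertion were -0.13, -0.19 and -0.23, beside -0.15 over all genes.

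The 4 pooled ratios (density, exon, orientation and reads, each divided by its SD over 13505 genes) were used to find the nearest gene on another chromosome for each member. NF1 lay nearest to CEP20 (distance 0.24 SD), RASA2 to TRIM38 (0.17), SPRED2 to STIMATE (0.30), PTPN1 to RPL11 (0.29), LZTR1 to PCK2 (0.16), CUL3 to CFAP97D1 (0.14) and RB1 to KRBOX4 (0.19). Each of these 7 members had 126 to 1041 genes within 1 SD. TSC2 was the most isolated, with IGHMBP2 at 0.63 and 4 genes within 1 SD, the 2 genes having 65 and 148 insertions.

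No difference in insertions between the helpers passed edgeR's quasi-likelihood test in the 7 members tested (0 called), where 0.816% of 12865 genes were called higher with hyPBase-centrip and 1.55% lower. TSC2 did not pass the filter on insertions. The differences, hyPBase-centrip over hyPBase, ran from -0.11 ± 0.06 for CUL3 to 0.15 ± 0.17 for LZTR1 on the log2 scale (SE), with adjusted p from 0.36 to 0.95. Those 2 genes were also the only ones of the 7 past 0.1 in size. SPRED2 was at 0.059 ± 0.032, with a density of 264 ± 8.5 (SD, n = 10) under hyPBase and 277 ± 12.1 (n = 10) under hyPBase-centrip. RB1 was at 43.5 ± 4.0 under hyPBase-centrip and 42.6 ± 3.7 under hyPBase.

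The ratio of gene to flank also passed no test between helpers in any of the 8 (limma, adjusted p from 0.46 to 0.98), where 0.025% of 16025 genes were called higher and 0.025% lower. At an unadjusted p below 0.05 none of the 8 passed either test. This ratio gave 0 calls in the 3 lists. In insertions per gene, 1 of 16 carriers of RAS signalling and 2 of 16 other tumor suppressor genes tested were called lower with hyPBase-centrip. Of the 12 other brakes tested 0 were called, and 1.55% of all genes were called lower. GAB2 (log2 -0.22 ± 0.03) and FBXW7 (-0.16 ± 0.04) were among those called lower, and both are named after their values were seen.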

How the data were processed

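For every library the authors deposited a qbed table in which a line stands for an insertion and gives its position, raw read counts, orientation and barcode. The submitters' notes name Trimmomatic, BWA, SAMtools and hg38, with no versions. How reads became insertions could set which insertions were kept and is not given in the sources used here. The 2 libraries whose labels conflict were left out, and the donor-only control is not analysed here.

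Every line was counted as an insertion at a TTAA site of hg38, in genes of GENCODE version 44. Distances along a gene, other than those of bins, were taken from the start of its canonical transcript, and the densest 5 kb was sought among windows with at least 10 TTAA sites. For gene body and flank, exons and introns, and the 2 strands, the test was the quasi-likelihood test of edgeR (version 4.0.16, R version 4.3.3, 2 columns per library with library as block, TTAA sites as offset). A mean deviance below 0 from rounding was set to 0 in its prior. Genes needed 20 TTAA sites in the body and 200 in the flank (5 exonic and 5 intronic for exons) and 20 insertions over all columns. Shares against the flank and reads per insertion were compared with limma 3.58.1 on 1 value per library. Shares needed a mean of 10 insertions per library at sites in genes of 1 strand, a minimum added after simulated data gave false calls below it. Helpers were compared with edgeR (TMM, at least 10 insertions in at least 10 libraries) and limma. Benjamini-Hochberg adjustment was over all genes tested, with a threshold of 0.05.

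In simulated data, 2-fold changes were recovered in 100% of 100 changed genes for density (16025 genes), 73% for exons (13724), 86% for strand (16025) and 100% for reads per insertion (14469). False calls made up 2.76%, 2.22%, 2.29% and 9% of calls. Of 1.25-fold changes 76%, 15%, 42% and 82% were recovered. Between helpers this was 59% for insertions per gene and 40% for the ratio, so differences of that size can go uncalled. Simulated density, exon and strand counts had 1 fixed dispersion, and simulated flank reads had no noise. Nothing says that libraries came from separate cultures, so p-values measure the spread between these libraries. Both edgeR and limma estimated a gene's spread partly from all genes tested. Very small p-values therefore do not rest on the gene's own spread over the 20 libraries alone. The libraries' number of insertions, 1509672 to 3596762, limits the precision, and intervals cover counting error only.

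The members, lists, tests and alternatives were chosen with earlier results of these data known. Named were the 8 genes, the highest and lowest gene of each list by density ratio, and each member's nearest gene. Alternatives were at least 2 reads, each helper alone, no hyPBase-centrip replicate 3, collapsed barcodes, unique sites, other flanks and exons, limma, DESeq2 1.42.0, other filters and scaling, a replicate block and, added after seeing the data, the canonical transcript. Figures were drawn with matplotlib 3.10.9.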

Additional observations from a re-analysis of the deposited data

Results flagged for a closer look

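A library was singled out when its gap to the next of its 10 libraries exceeded Dixon's 95% critical value for 10 samples, in 96 groups of 10 (8 genes, 6 measures, 2 helpers). This gave 14 cases, where chance flags about 1 in 20 groups. Library hyPBase-centrip replicate 3 accounts for 7 of them.

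In that library the density ratio of gene to flank was lowest of its helper for NF1 (0.995, next 1.23) and for RASA2 (0.449, next 0.563) and highest for LZTR1 (3.12, next 2.12). Its LZTR1 density was 550 (next 336) and its RB1 density 33.5 (next 40.6). The exonic share of CUL3 was 16.4% (next 9.92%) and the same-strand share of SPRED2 42.4% (next 39.0%).

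Among hyPBase libraries, replicate 1 had the highest RASA2 density ratio, 0.738 (next 0.651), and replicate 7 an exonic share of 70.0% in LZTR1 (next 46.2%). For TSC2, with 1 to 7 insertions per library, the same-strand share was 100% in hyPBase replicate 9 (next 25.0%) and 16.7% in hyPBase-centrip replicate 9 (next 0%). Its reads per insertion were 27.3 in hyPBase replicate 3 (next 12.5), 5.90 times the flank (next 1.83), and in hyPBase-centrip replicate 5 1.95 times the flank (next 1.35).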

How the results depend on the processing

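Of the members' values under each alternative, 393 kept their call or lack of one, 21 lost the call and 2 gained one. Another 12 changed sign with a call before or after. Values that changed sign with no call before or after count among the 393. The density ratio (log2) turned to -0.11 for LZTR1 with unique sites and -1.64 in introns without the start, to -0.015 for PTPN1 and -0.24 for CUL3 with a 250 kb flank, and to -0.057 for NF1 and -0.23 for CUL3 with 1 Mb. The exon ratio turned to 0.89 for LZTR1 with barcodes collapsed and, in coding exons, to -0.0083 for RASA2 and 0.92 for CUL3. The same-strand ratio of RB1 turned to -0.030 with barcodes collapsed, -0.15 at sites of 1 strand and -0.94 in the canonical transcript. The causes were not tested.

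Counts of members called under an alternative say little about these genes in particular. With the main settings, 35.3% of all genes tested were denser than their flank and 55.1% sparser. For exons 46.1% were denser and 23.4% sparser, and 7.24% had the higher same-strand share. Against neighbours 40.0% were higher, and 13.8% had more reads per insertion. Shares of all genes under each alternative are not given here. Members called denser than the flank numbered 3 with 250 kb and 2 with 1 Mb, where 5 were sparser. Members denser in exons numbered 2 with barcodes collapsed, with canonical exons and in the canonical transcript, and members sparser there 3, 2 and 2, also 3 in hyPBase-centrip libraries alone and 1 in coding exons, where 1239 genes were denser and 1382 sparser of the fewer genes tested. No member (0) had the higher same-strand share in hyPBase libraries alone, with barcodes collapsed, at sites of 1 strand or in the canonical transcript, and 1 exceeded its neighbours with at least 2 reads. Members with more reads per insertion numbered 0 in hyPBase libraries alone and with at least 2 reads, and 1 with 250 kb, with 1 Mb and without hyPBase-centrip replicate 3. By the share of insertions with 1 read, 3509 genes were called as having fewer reads, that is a larger such share than their flank. Between helpers, genes called lower numbered 133 with at least 2 reads and genes called higher 55 by DESeq2. Without hyPBase-centrip replicate 3, the gene-to-flank ratio gave 0 genes higher and 1 lower, with 250 kb 1 and 2, and with at least 2 reads 0 and 1.

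With the replicate number as a block, 105 genes were higher and 186 lower in insertions per gene, and 1 and 1 in the ratio, where 4 and 4 had been called without it, and no member was called. Same-numbered libraries of the 2 helpers did not deviate together (correlations -0.044 to 0.035 over 10 pairs), and 1 of 10 hyPBase libraries was closest to its own number, so the number pairs nothing. TSC2, at 1 to 7 insertions per library, and LZTR1, at 10 to 22, are where depth limits the values most.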
